A study of Solanum lycopersicum with 36 samples.

Results

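The miR390 family of tomato leaf was described here by its guide and passenger strands. Its members were all sequences of the deposited small RNA table whose name holds miR390, each sequence taken once, and there were 8 of 765. In the small RNA libraries, 5 of the 8 had 10 or more normalized reads in 3 or more libraries, the level needed to enter the tests, which 419 of the 765 sequences reached. The family was chosen by the measured values of sly-miR390b-3p, with earlier results of these data known, so the values of this sequence are given as a description, with no test.

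Leaves came from tomato 'Jinlingmeiyu', listed as wild type, in 4 treatments with 3 biological replicates each. At the combination, plants were kept at 38 °C after water had been withheld for 3 days. At heat they were kept at 38 °C and irrigated. At drought they were kept at 26 °C after the same 3 days without water, and control plants were kept at 26 °C and irrigated. All plants were 24 days old when the watering was changed, the temperature treatments lasted 48 h by the labels, and leaves taken before their end were sequenced. The same 4 treatments were sequenced as 12 small RNA libraries and 12 degradome libraries, in which the cut ends of transcripts are read. A table of miRNA sequences holds no marker of leaf cells, so the tissue label was not checked.

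In plants, hairpin transcripts are cut into short duplexes from which miRNAs are made. The guide strand is loaded into an argonaute protein (AGO), and the passenger strand is usually removed. The guide of miR390, which opens with an A, is loaded into AGO7 in Arabidopsis. There it binds TAS3 transcripts, which are turned by RDR6, SGS3 and DCL4 into trans-acting small RNAs against the auxin response factors ARF2, ARF3 and ARF4. This pathway is known for its part in leaf polarity and in the timing of leaf development.

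The 8 sequences are shown because the family turns on how nearly alike its strands are, with bases 2 to 8 (the seed) in capitals and each read from the 5′ end. Guides were the 5p strands and passengers the 3p strands.
sly-miR390a-5p: aAGCTCAGgagggatagcacc
sly-miR390b-5p: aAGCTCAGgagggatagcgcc
sly-miR390a-5p_ath on chromosome 9: aAGCTCAGgagggatagcgcct
sly-miR390a-5p_ath on chromosome 10: aAGCTCAGgagggatagcaccg
sly-miR390a-3p: cGCTATCCatcctgagtttt
sly-miR390b-3p: cGCTATCCatcctgagttt
sly-miR390b-3p_ath: cGCTATCCatcctgagttct
sly-miR390b-3p_aly: cGCTATCTatcctgagtttca

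All 4 guides shared the seed AGCTCAG, 3 passengers shared GCTATCC and the passenger sly-miR390b-3p_aly had GCTATCT. None of these 3 seeds was found in the other sequences of the table. The main guides differed by 1 base (A19G, sly-miR390a-5p first, counted from the 5′ end). The 19 bases of sly-miR390b-3p were the first 19 of the 20 bases of sly-miR390a-3p, so the letters alone do not tell from which hairpin such a read came. From sly-miR390a-3p, sly-miR390b-3p_ath differed by T19C, and sly-miR390b-3p_aly by C8T and T20C over the 20 bases compared.

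The hairpins lay at 2 places of the SL3.0 genome by the study's own list. The sly-miR390a hairpin was on the minus strand of chromosome 10 (chr10:59448031-59448193) and the sly-miR390b hairpin on the plus strand of chromosome 9 (chr9:8388439-8388547). The entry of sly-miR390b-3p_ath with its 22-nt guide (chr10:59447997-59448115) overlapped the first, and that of sly-miR390b-3p_aly with its 22-nt guide (chr9:8388436-8388550) overlapped the second. Set against each other with a 2-base overhang, the sly-miR390a strands paired at 16 of 19 positions plus 1 G-U wobble, with mismatches at guide positions 11 and 19. The sly-miR390b strands paired at 17 of 19 positions plus 1 wobble, with a mismatch at position 11 only. Among the 90 duplexes of the table with both strands in the test, 25.6% of guides and 45.6% of passengers opened with A. By this count A, the first base of the miR390 guides, was a less common start of a guide than T, which stood first in 63.3% of guides. Here and in the ratios below, the guide of a duplex was its more abundant strand. In some duplexes this is not the strand that bears the plain miRNA name, as with sly-miR397-p3 over sly-miR397.

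The small RNA libraries held between 850394 and 1698502 reads of listed miRNA sequences, recovered from the deposited values as described under the processing. The family took between 0.322% and 0.608% of the normalized reads of a library. By mean level over the 12 libraries, sly-miR390a-5p stood at rank 41 of 765, sly-miR390b-5p at 59, sly-miR390a-3p at 90, sly-miR390b-3p at 163 and sly-miR390b-3p_ath at 201. The control 2 library held the lowest value of all 5 sequences among the controls, and of sly-miR390b-5p and sly-miR390b-3p_ath among all 12 libraries. Values that rest on control are given without it where its removal changed a call, turned a sign or moved them by much. Its median passenger-to-guide ratio over the 90 duplexes, -2.37 on the log2 scale, lay beside the -2.30 and -2.36 of the other controls.

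In leaves at the combination of heat and drought, the sly-miR390a passenger fell, while neither main guide passed the test against control. sly-miR390a-3p was at 0.34 times its control level by the fit, and its share of its own hairpin was 4.03% at the combination, against 13.5% in control. sly-miR390b-3p was also lowest there, and the test of sly-miR390a-3p is not independent of the choice of the family. At heat alone none of the 4 strands given a test passed against control with all libraries in the fit.

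The guide sly-miR390a-5p had 4940, 3949 and 3710 normalized reads at the combination. At heat it had 2110, 3085 and 2438, at drought 2919, 3059 and 3163, and in control 3289, 2942 and 4144. The combination libraries overlapped those of control and lay above all those of heat and of drought, as they did for 13.1% and 14.1% of the 419 sequences. Means were 4199.8 ± 652.2 at the combination, 2544.5 ± 496.3 at heat, 3046.8 ± 122.6 at drought and 3458.6 ± 618.7 in control (SD, n = 3 each). Against control, the log2 fold change (log2FC, on log2 of normalized reads + 1) was 0.28 ± 0.20 (SE) at the combination, with a 95% interval from -0.14 to 0.71 and an adjusted p = 0.442 from limma with Benjamini-Hochberg adjustment over the 419 sequences. At heat it was -0.45 ± 0.20 (adjusted p = 0.177, limma), and at drought -0.17 ± 0.20 (adjusted p = 0.932, limma). Against drought, the value of the combination was 0.45 ± 0.20 (adjusted p = 0.167, limma).

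The guide sly-miR390b-5p had 1796, 1503 and 1950 normalized reads at the combination. It had 1256, 1976 and 1347 at heat, 1297, 1287 and 1283 at drought, and 1096, 617 and 1771 in control. The control libraries spanned most of the range of the others and overlapped each of them. The combination libraries lay above all drought libraries, with a log2FC of 0.43 ± 0.32 (adjusted p = 0.418, limma), as did those of 14.1% of the sequences. Means were 1749.7 ± 226.9, 1526.5 ± 391.9 and 1289.0 ± 6.8 at the combination, heat and drought, and 1161.4 ± 579.6 in control (SD, n = 3 each). The log2FC against control was 0.71 ± 0.32 at the combination (95% interval from 0.03 to 1.40, adjusted p = 0.193, limma). Without the control 3 library it was 1.08 and passed (adjusted p = 0.038, limma). At heat the log2FC was 0.49 ± 0.32 (adjusted p = 0.362, limma) and at drought 0.28 ± 0.32 (adjusted p = 0.932, limma). Without the control 2 library the values were lower, at 0.32 for the combination, 0.10 for heat and -0.11 for drought. None of them passed.

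The share of sly-miR390b-5p in the reads of both main guides was 37.3%, 39.0% and 35.6% at heat, against 25%, 17.3% and 29.9% in control. These groups did not overlap, but how often this holds for other pairs of guides was not counted. At the combination the share was 26.7%, 27.6% and 34.4%, and at drought 30.8%, 29.6% and 28.9%. The share was looked at after the levels of both guides were known, and no test was run on it. A difference in either guide moves it.

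The passenger sly-miR390a-3p had 170, 199 and 153 normalized reads at the combination. It had 346, 395 and 292 at heat, 538, 632 and 589 at drought, and 711, 280 and 669 in control. Every combination library lay below every library of the other treatments, and how many of the 419 sequences show this was not counted. The control 2 library, at 280, lay below all heat libraries and apart from the other controls. Means were 174.1 ± 23.4 at the combination, 344.2 ± 51.3 at heat, 586.4 ± 46.8 at drought and 553.4 ± 237.9 in control (SD, n = 3 each).

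Against control, sly-miR390a-3p fell by 1.56 on the log2 scale at the combination (SE 0.31, 95% interval from -2.24 to -0.87, adjusted p = 0.0062, limma), and by 1.99 without the control 2 library. Fitted on the combination and control libraries alone, it no longer passed (adjusted p = 0.058, limma). Against drought it fell by 1.75 (SE 0.31, adjusted p = 0.0023, limma). Of the 4 miR390 sequences given a p, it was the 1 called in each of these comparisons, while 9.31% of the 419 sequences were called lower at the combination than in control and 7.4% lower than at drought. Groups that did not overlap, with the combination lower, were found for 17.7% of the sequences against control and 18.4% against drought. These tests of sly-miR390a-3p are not independent of the choice of the family. They use the combination libraries in which sly-miR390b-3p was lowest, and the values of both passengers are not wholly separate.

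At heat, sly-miR390a-3p had a log2FC of -0.58 ± 0.31 against control (adjusted p = 0.298, limma), while 12.6% of the sequences were called lower. This value depends on the control 2 library, since without it the log2FC was -1.01 and passed (adjusted p = 0.0068, limma). At drought it was 0.20 ± 0.31 (adjusted p = 0.932, limma), or -0.24 without the control 2 library. No sequence was called in that comparison by limma, with 34 of 419 under an unadjusted p of 0.05. Heat against drought gave -0.77 ± 0.31 (adjusted p = 0.173, limma), with 11.2% of the sequences called lower, and this passed without the control 2 library (adjusted p = 0.019, limma) and with only the heat and drought libraries in the fit (adjusted p = 0.040, limma). Over both 38 °C treatments against both 26 °C treatments the log2FC was -1.17 ± 0.22 (adjusted p = 0.0021, limma), a comparison that holds the combination libraries and in which 12.9% of the sequences were called lower.

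**Figure D1:**
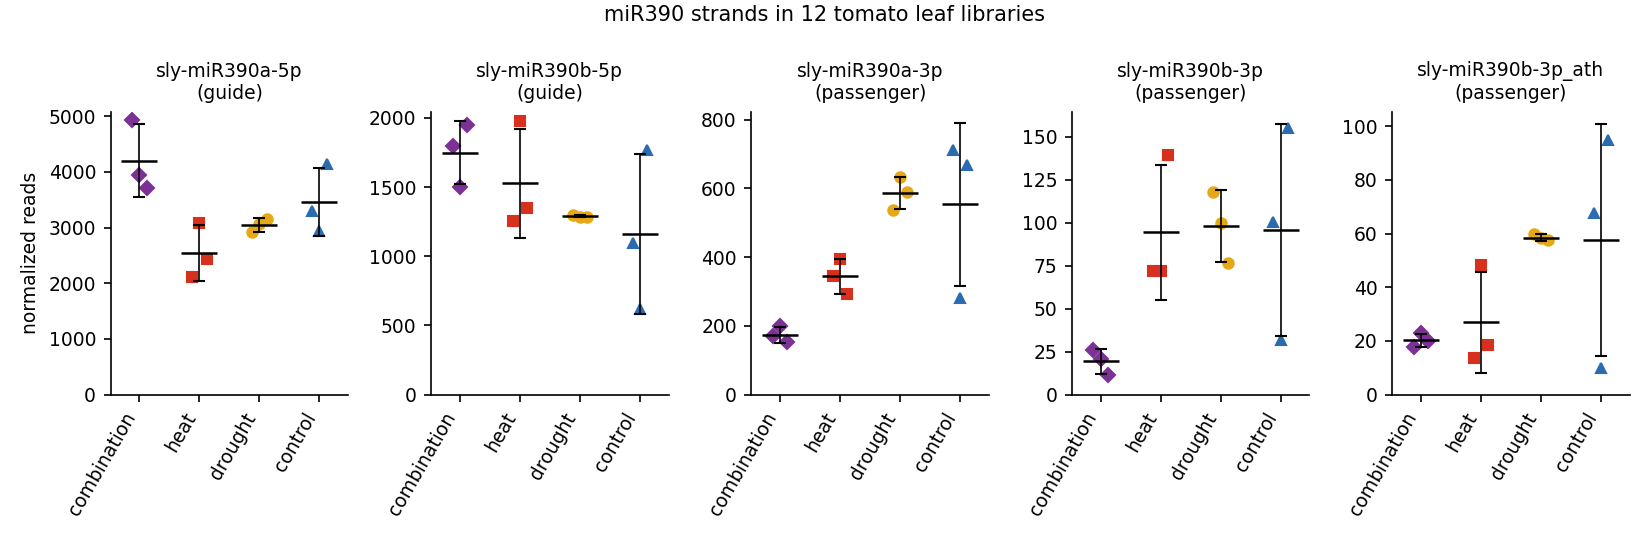
Normalized reads of the 5 tested miR390 sequences in each library (points), by treatment, with the mean (line) and SD (bars) of 3 libraries; the vertical scales differ. The combination libraries of sly-miR390a-3p sit between 153 and 199, below all other libraries.

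The passenger sly-miR390b-3p, for which the family was chosen, had 25.9, 20.9 and 11.3 normalized reads at the combination. It had 71.8, 71.8 and 139.5 at heat, 118.1, 99.7 and 76.3 at drought, and 100.5, 31.9 and 154.9 in control. The combination libraries were the lowest of all 12, with 13 to 33 reads before scaling. Its means were 19.4 ± 7.4 at the combination, 94.4 ± 39.1 at heat, 98.0 ± 21.0 at drought and 95.8 ± 61.6 in control (SD, n = 3 each). The log2FC of the combination was -2.06 ± 0.53 (SE) against control, -2.33 ± 0.53 against drought and -2.23 ± 0.53 against heat. Against control, the log2FC was 0.17 ± 0.53 at heat and 0.28 ± 0.53 at drought. Without the control 2 library the value of the combination was -2.70, and those of heat and drought turned to -0.47 and -0.37, so no direction is read from the values of heat and drought.

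The comparison of the combination with heat is the one in which sly-miR390b-3p stood out: it was the 1 sequence of 419 (0.239%) called lower, while 6.21% were called higher. That call belongs to the choice of the family and is not a test of it. All values of this comparison are therefore a description. In it the log2FC was -0.98 ± 0.31 for sly-miR390a-3p, 0.73 ± 0.20 for sly-miR390a-5p and 0.22 ± 0.32 for sly-miR390b-5p. Groups that did not overlap were lower at the combination for 7.64% of the sequences, sly-miR390a-3p and sly-miR390b-3p among them. The values of these passengers are not wholly separate. Both held fractions of a read in the same 4 libraries (drought 1, heat 1, heat 3 and combination 1), as when a read is shared between sequences, and no guide held any. With the passengers summed into 1 feature the log2FC against heat was -1.12.

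The third passenger, sly-miR390b-3p_ath, had 17.7, 22.8 and 20.0 normalized reads at the combination and 13.8, 48.3 and 18.6 at heat. It had 59.8, 58.3 and 57.5 at drought, and 67.7, 10.0 and 94.8 in control. The combination and heat libraries overlapped, and the control libraries held both the highest value and the lowest. Against control its log2FC was -0.99 ± 0.70 at the combination (adjusted p = 0.453, limma) and -0.78 ± 0.70 at heat (adjusted p = 0.502, limma). Without the control 2 library these were -1.95 (adjusted p = 0.022, limma) and -1.74 (adjusted p = 0.031, limma), and both passed. Against drought the value of the combination was -1.50 ± 0.70 (adjusted p = 0.193, limma). The groups did not overlap, with the combination lower, as for 18.4% of the 419 sequences. At the same -1.50 the value passed without the control 2 library (adjusted p = 0.048, limma) and with only these 2 groups in the fit (adjusted p = 0.021, limma).

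The other 3 members were near the limit of detection and had no test. The 22-nt guide on chromosome 9 had 3.80 and 5.22 normalized reads in combination 2 and combination 3. That on chromosome 10 had 5.97 in control 1. The passenger sly-miR390b-3p_aly had 6.32 in combination 1, 5.16 in heat 1, and 6.38 and 6.09 in control 2 and control 3. Each of these values stood for 5 to 7 reads, and the members were at 0 in all other libraries.

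**Figure D2:**
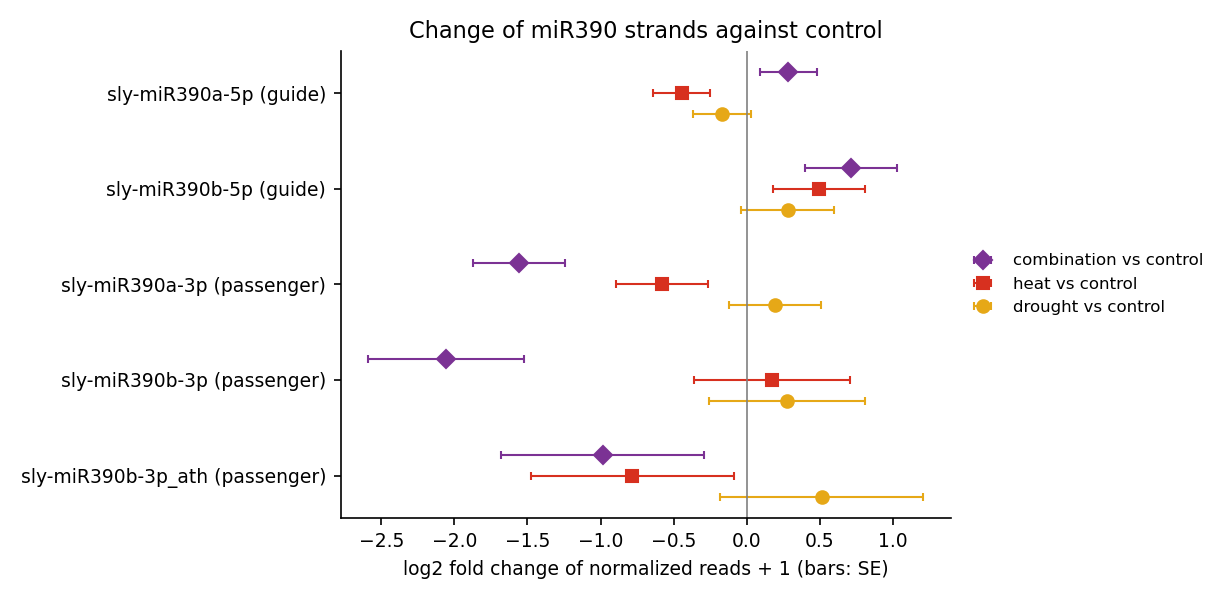
The log2FC of each tested miR390 sequence against control (points) with its SE (bars), for the combination, heat and drought. At the combination the passengers sly-miR390a-3p and sly-miR390b-3p lie at -1.56 and -2.06 and the guides at 0.28 and 0.71.

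The passenger share of each hairpin puts both strands of a library side by side and is free of the scaling of that library. Of the sly-miR390a reads (guide plus passenger), the passenger took 3.33%, 4.80% and 3.96% at the combination. It took 14.1%, 11.3% and 10.7% at heat, 15.6%, 17.1% and 15.7% at drought, and 17.8%, 8.68% and 13.9% in control. All combination libraries lay below all others, and the lowest of the others was the control 2 library.

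The sly-miR390b hairpin is given with sly-miR390b-3p as its passenger, as in the study's list, though its letters do not tell the hairpin. There the passenger took 1.42%, 1.37% and 0.576% at the combination. It took 5.41%, 3.51% and 9.38% at heat, 8.35%, 7.19% and 5.61% at drought, and 8.40%, 4.92% and 8.04% in control. Again the combination libraries were the lowest, while heat, drought and control overlapped. Since the values of both passengers are not wholly separate, the shares of the hairpins are not separate measurements. Over all 8 sequences, passengers took 3.53% of the family at the combination, 10.4% at heat, 14.6% at drought and 12.9% in control (means of 3 libraries).

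**Figure D3:**
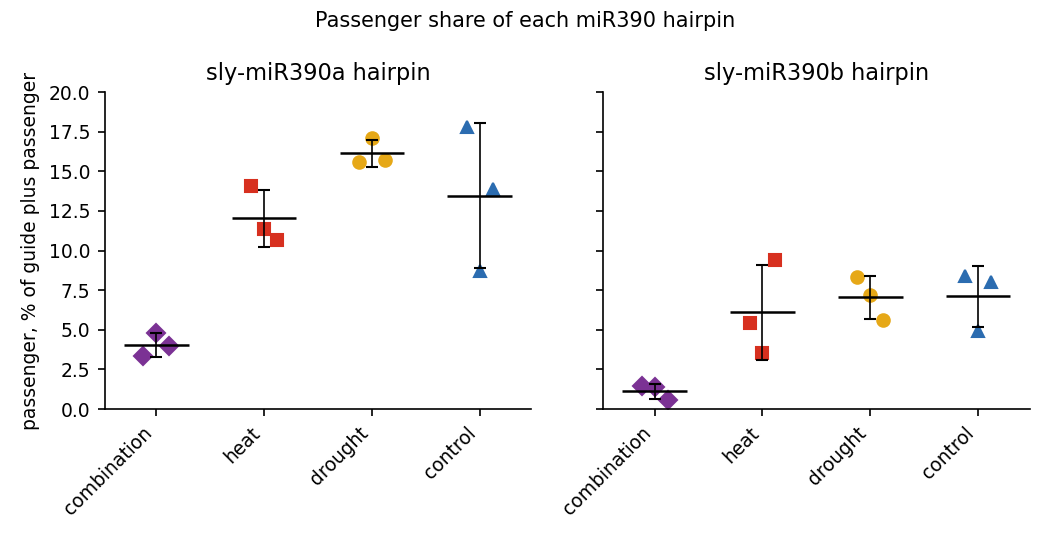
Passenger reads as a percentage of guide plus passenger reads in each library (points), for both hairpins, with the mean (line) and SD (bars) of 3 libraries. Passengers are assigned to hairpins as in the study's list. The combination libraries lie between 3.33% and 4.80% for sly-miR390a and between 0.576% and 1.42% for sly-miR390b.

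The ratio of passenger to guide was fitted for all 90 duplexes, to show whether the strands of miR390 shifted beyond the spread between replicates and where they stood among other miRNAs. For sly-miR390a, the log2 ratio at the combination fell by 1.84 against control (SE 0.29, 95% interval from -2.48 to -1.19, adjusted p = 0.0008, limma with Benjamini-Hochberg adjustment over the 90 duplexes) and by 2.20 against drought (SE 0.29, adjusted p = 0.0005, limma). The share of the 90 ratios called lower was 21.1% against control and 24.4% against drought. Groups that did not overlap, lower at the combination, were found for 33.3% and 36.7% of the ratios. The combination libraries that carry these values also hold sly-miR390b-3p, so they are not independent of the choice of the family.

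At heat, the sly-miR390a ratio changed by -0.13 ± 0.29 against control (95% interval from -0.78 to 0.51, adjusted p = 0.766, limma), and at drought by 0.36 ± 0.29 (adjusted p = 0.723, limma). Without the control 2 library these were -0.46 and 0.04, without control 1 the heat value was 0.13, and none of them passed. At heat 38.9% of the 90 ratios were called lower, and the median change over all of them was -0.77. The interval of sly-miR390a reached down to that median. From the lowest change upward, sly-miR390a stood at rank 65 of 90 at heat and at rank 15 at the combination, where the median change was -0.55. Over both 38 °C treatments against both 26 °C treatments its ratio changed by -1.17 ± 0.20 (adjusted p = 0.0008, limma), where 44.4% of the ratios were called lower. Its rank there was 31 of 90. For water withheld against irrigated, over both temperatures, the change was -0.67 ± 0.20 (adjusted p = 0.068, limma), at rank 6. With pseudocount 10 the latter passed (adjusted p = 0.046, limma). Both comparisons hold the combination libraries, so they are not independent of the choice of the family.

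The sly-miR390b ratio, a description since it holds sly-miR390b-3p, changed by -2.77 ± 0.44 at the combination against control and by the same -2.77 ± 0.44 against drought. At heat it changed by -0.32 ± 0.44 against control and at drought by 0.00 ± 0.44. It stood at rank 4 of 90 at the combination and at rank 58 at heat. The comparisons with control share the control libraries, so these ranks are not separate measurements. The ratio takes sly-miR390b-3p as the passenger of this hairpin, as in the study's list.

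Between the combination and heat, a description for both hairpins, the log2 ratio differed by -1.71 ± 0.29 for sly-miR390a and by -2.45 ± 0.44 for sly-miR390b. The median over the 90 duplexes was 0.46 in the other direction, with 25.6% of ratios called higher and 4.44% called lower. Lower without overlap were 5.56% of the ratios, both miR390 hairpins among them. By library, the median log2 ratio of the 90 duplexes was -3.33, -2.38 and -2.70 at the combination, and -3.10, -3.10 and -3.27 at heat. The sly-miR390a ratio was -4.85, -4.30 and -4.59 at the combination, and -2.60, -2.96 and -3.06 at heat. The sly-miR390a ratios of the combination libraries lay closer together than the medians of these libraries, while their sly-miR390b ratios, at -6.06, -6.10 and -7.31, lay farther apart.

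**Figure D4:**
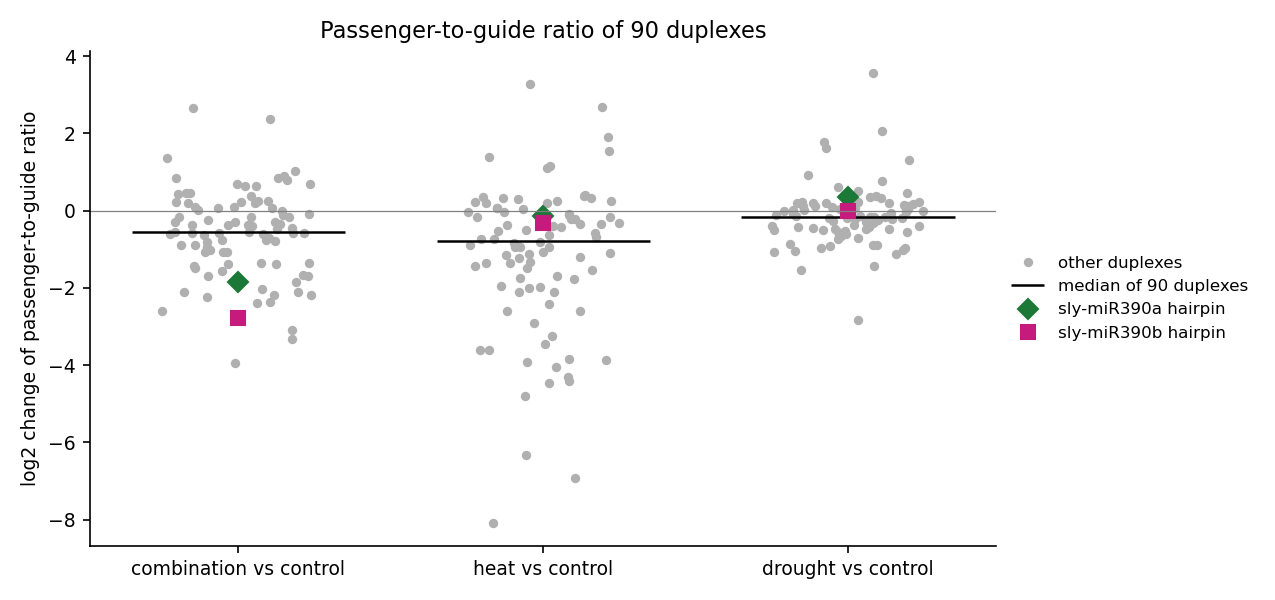
Change of the log2 passenger-to-guide ratio against control for 90 duplexes (grey points, spread sideways for view), with the median (line) and both miR390 hairpins. At heat the hairpins lie at -0.13 and -0.32, above the median of -0.77, and at the combination at -1.84 and -2.77, below the median of -0.55.

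Other miRNAs of auxin signalling were taken as a list of miR160 and miR167, which act on auxin response factors, and miR393, which acts on the TIR1 and AFB auxin receptors. Of its 16 sequences, 15 were tested. At the combination 0 were called higher and 1 lower than in control, with a median log2FC of 0.11, against -0.04 over all 419 sequences, of which 3.34% were called higher and 9.31% lower. The one called was sly-miR167c-3p_stu, a 3p strand, with a log2FC of -4.25. At heat 1 was called higher and 4 lower than in control, with a median of 0.41 against 0.14 over all sequences, of which 2.39% were called higher and 12.6% lower. Of these, sly-miR393-5p_stu had a log2FC of 0.86, and the lowest were sly-miR160a-3p_stu at -4.10 and sly-miR167c-3p_stu at -3.93. The 4 lower ones were all 3p strands, and the difference between them and the miR390 passengers at heat was not tested. At drought none of the list was called, as over all sequences.

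Outside the family, the patterns most like that of sly-miR390b-3p over the 12 libraries were those of sly-miR172d-3p_stu (Pearson r = 0.77), sly-miR9474-p5 (r = 0.73) and sly-miR156d-3p (r = 0.73), of 414 sequences compared. Those most like the guide sly-miR390a-5p were sly-miR168a-3p_ath (r = 0.83), sly-miR167b-3p_stu (r = 0.79) and sly-miR1919a (r = 0.75). Of the sequences named sly-miR168a-3p_ath, this was the one ending in gattt, with treatment means of only 2.0 to 24.8 normalized reads. Within the family, sly-miR390a-3p ran with sly-miR390b-3p (r = 0.85) and with sly-miR390b-3p_ath (r = 0.80), while the main guides had r = 0.44 with each other and sly-miR390a-5p had r = -0.27 with its own passenger. These correlations describe log2 normalized reads in 12 libraries that share their treatments, scaling and depth.

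The degradome lists, 1 per treatment, held 561 rows at the combination, 507 at heat, 516 at drought and 590 in control. Rows that named miR390 numbered 0 at the combination, 0 at heat, 3 at drought and 2 in control, each set on 1 transcript, and all of them named guides. At drought this was Solyc10g005110.3.1, annotated as coproporphyrinogen-III oxidase 1 (CPX), an enzyme of heme and chlorophyll synthesis. It had 113.8 normalized reads in drought 2, which stood for 3 reads, and 0 in the other drought libraries. In control it was Solyc01g058100.2.1, which carries no annotation, with 40.0 normalized reads or 1 read in control 3 and 0 in the other controls. A single library held the reads in either case, and no site reached the 10 reads needed for a test. By the study's summary, far fewer degradome reads mapped to transcripts at heat and at the combination than at drought and in control. The number of transcripts covered was much the same. Whether this bears on the miR390 rows was not tested, so their numbers are not compared between treatments.

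No row of any list carried the symbols TAS3, ARF2, ARF3, ARF4, AGO7, RDR6, SGS3 or DCL4. Each row is assigned to a miRNA. ARF2, ARF3 and ARF4 are targets of the trans-acting small RNAs, and AGO7, RDR6, SGS3 and DCL4 are parts of the pathway, so the absence of their symbols says nothing of the pathway. Rows annotated as an auxin response factor were 13 in each list, of which 9 were assigned to miR160 and 4 to miR167. Among them was Solyc09g007810.3.1, annotated as auxin response factor 3 with the symbol ARF18 and assigned to miR160. The lists hold only transcripts with a cut site found, and 1 read stood for 35.6 to 54.7 normalized reads, so a site cut at a low level would not be seen at this depth.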

How the data were processed

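Small RNA and degradome libraries of 12 leaf samples each were used, in groups given by the treatment of each label. The circular RNA values were not used. Small RNA abundance was deposited by the authors as a signal: reads of each miRNA sequence (miRBase 21.0, after removal of reads matching Rfam, repeats and the Solanaceae database) multiplied by 1 factor per library, 0.633 to 1.295. Between 85.1% and 87.9% of the values above 0 were whole reads (within 0.0001 reads), and nearly all others were fractions, as when a read is shared between sequences. The normalization formula and aligner are not given in the sources used here. The degradome values are likewise a signal deposited by the authors, from CleaveLand 3.0 on ITAG3.2 transcripts.

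Sequences reaching 10 normalized reads in 3 or more libraries were fitted as log2(normalized reads + 1) with limma 3.58.1 in R 4.3.3 (1 mean per treatment, 12 libraries, mean-variance trend, two-sided, Benjamini-Hochberg, threshold 0.05). A second fit took log2 passenger over guide for the 90 duplexes with both strands tested, the guide being the more abundant strand and the hairpins those of the study's list. The study's chi-square test takes no spread between replicates and was not used. The test was tried on simulated data. Python 3.11.15 and pandas 2.3.3 handled tables, with matplotlib 3.10.9 for plots. The members and lists were chosen with earlier results of these data known. Named are all miR390 sequences, up to 2 called auxin miRNAs in each direction and 3 sequences by likeness to each of 2 members. Alternatives were another pseudocount, no filter, 2 groups only, a replicate block, no trend, other scalings, voom on recovered reads, summed strands and each library left out. Counts of reads are not independent molecules, so depth covers counting error only.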

Additional observations from a re-analysis of the deposited data

How the results depend on the processing

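Over 21 other settings, 694 of 707 tested values of 35 results stayed on their side of the threshold, 12 newly passed and 1 no longer passed. Signs turned in 14 of the tested values, 0 of them called, and in 19 values without a test. The fall of sly-miR390a-3p at the combination against control was -1.56 with only the combination and control libraries in the fit (adjusted p = 0.058, limma). There the spread comes from these libraries alone. Over the settings other than leaving 1 library out, the adjusted p of this fall (limma) ran from 0.0043 to 0.058. With each library left out the log2FC ranged from -1.99 to -1.32 and passed each time. For sly-miR390a-3p at heat against control the range was -1.01 to -0.34, passing without control replicate 2, and for sly-miR390b-5p at the combination against control 0.32 to 1.08, passing without control replicate 3. The sly-miR390a ratio at the combination ranged from -2.16 to -1.57 against control and passed each time. The cause of these differences was not tested. The summed passengers, which hold sly-miR390b-3p and so have no test, gave -1.58 at the combination against control.

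The replicate numbers were not taken to pair the samples. Same-numbered samples had correlations of their deviations from -0.38 to 0.38, 5 of 18 above 0.1. Differently numbered samples had correlations from -0.40 to 0.39, 11 of 36 above 0.1. This check cannot exclude that some samples are paired. With the replicate number as a block, the sly-miR390a-3p value at the combination against control stayed at -1.56 (adjusted p = 0.015, limma), that of the sly-miR390a ratio at -1.84 (adjusted p = 0.0025, limma), and no call on miR390 changed. Scaling each library to the same sum moved the median of all sequences by 0.12 for drought and 0.10 for the combination against control. The planned degradome alternatives were not run, since no miR390 site could be tested. The thinnest values, 13 to 33 reads of sly-miR390b-3p at the combination, limit the precision of its ratio.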
